A study of Homo sapiens with 6 samples.

Results

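Complexes III and IV of the mitochondrial respiratory chain were followed through 10 of their nuclear-encoded subunit genes. UQCRB, UQCRC1, UQCRC2, UQCRH and CYC1 belong to complex III, the cytochrome bc1 complex, and COX4I1, COX5A, COX5B, COX6C and COX7C to complex IV, cytochrome c oxidase. The genes were chosen by name, with earlier results of these data known. They are the rows of the deposited value table that carry these platform symbols. All 10 had a row, each had 1 row, and they stand among 14779 genes with a named row.

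The cells were BE(2)-C, a long-established line from a human neuroblastoma. Transcripts were measured in 3 samples given the vehicle DMSO and 3 given 10 µM NCT-503, all for 2 days and in the same serum-containing medium. NCT-503 inhibits PHGDH, the enzyme that opens serine synthesis. Each sample was read on 1 Affymetrix whole-transcript array, and values are given on the deposited log2 scale. The samples are called independent, though separate cultures are not named, so p-values measure the spread between samples, which may be technical. A single line, dose and time were used, and RNA, not protein or respiration, was measured.

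Complex III takes electrons from ubiquinol and hands them to cytochrome c, and complex IV passes them on to oxygen. Both pump protons across the inner mitochondrial membrane and so feed ATP synthesis, and the chain's electron flow regenerates NAD+, the cofactor that PHGDH uses. Each complex joins catalytic subunits encoded by mitochondrial DNA with subunits encoded in the nucleus and imported.

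The 6 arrays had medians of 4.30 to 4.33. Arrays of the same group correlated at 0.990 to 0.993 (Pearson, across rows) and arrays of different groups at 0.971 to 0.972. Of 16 neuroblastoma markers, 13 had a row, with DMSO means from 4.83 (NPY) to 11.67 (STMN2). Of these 13, 4 were called higher and 5 lower, against 16.4% and 17.1% of all genes. Changes ran from CHGA (-1.23) and CHGB (-1.13), granule proteins, to PHOX2A (0.75) and NPY (0.80). TH (-0.16), GATA2 (-0.05), STMN2 (0.04) and RET (0.08) were not called. Blood cell and endothelial markers with a row (CD14, LYZ, VWF, KDR) had DMSO means from 2.48 to 3.68. The fibroblast markers with a row stood at 7.22 (LUM) and 4.81 (DCN), with changes of -0.24 (adjusted p = 0.0521) and -0.47, the latter called lower (adjusted p = 0.00687). The part of these marker changes in any result was not tested. Levels of different genes come from different probes and were not ranked. MYCN was not analysed here.

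Transcripts of 7 of the 10 subunits rose with NCT-503, by 1.21-fold (COX5A) to 1.47-fold (UQCRB), and none of the 10 reached 1.5-fold. UQCRC2 rose 1.37-fold with the smallest adjusted p of the 10, and COX5B rose 1.38-fold. UQCRH, COX6C and COX7C did not pass the test. The fitted change was above 0 in all 10, with a median of 0.38 on the log2 scale, against 0.06 over all 14779 genes tested. These are limma changes, NCT-503 minus DMSO, called at a Benjamini-Hochberg adjusted p under 0.05 over all genes tested. In that fit 16.4% of all genes (2419) were called higher and 17.1% (2534) lower. No subunit of the 10 was called lower, and none was lower at an unadjusted p under 0.05. Without DMSO a or without DMSO c the count was 3 of 10 (UQCRB, UQCRC2 and COX5B), with 11.8% and 12.1% of all genes called higher. The changes moved less than the calls: COX5A lost its call without DMSO a (adjusted p = 0.0528) at 0.29, against 0.28 with all arrays. The part of the smaller number of arrays in these losses was not tested. When arrays were shifted to a common 75th percentile, 8 of the 10 were called higher, and over all genes 3345 (22.6%) were then higher and 2189 lower, with the median of all genes at 0.13.

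Of the 5 complex III genes 4 were called higher, with a median change of 0.40 over the 5, and of the 5 complex IV genes 3, with a median of 0.28. The difference between the complexes was not tested. In 9 of the 10 genes every NCT-503 array lay above every DMSO array, a pattern that 25.4% of all genes showed. UQCRH was the exception. Relative to each gene's DMSO mean, the median over the 10 genes was 0.43 in NCT-503 a, 0.34 in NCT-503 b and 0.26 in NCT-503 c, and -0.04 to 0.07 in the DMSO arrays. NCT-503 a held the highest treated value for 6 of the 10 genes.

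**Figure D1:**
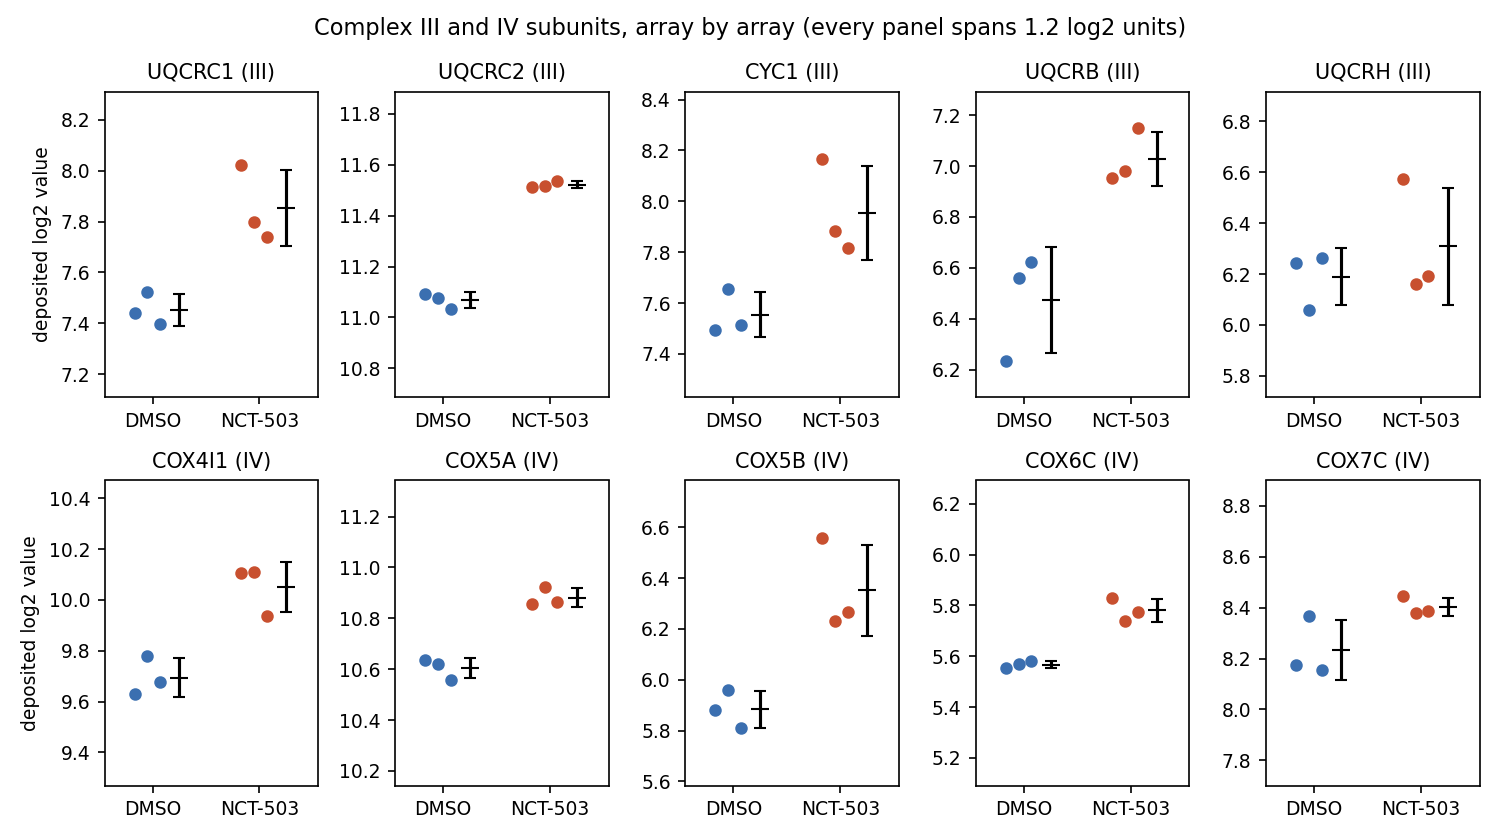
Deposited log2 values of the 10 genes, 1 panel per gene (complex III above, complex IV below), with DMSO arrays in blue and NCT-503 arrays in orange in the order a, b, c, and black bars for the mean ± SD of 3 arrays; every panel spans 1.2 log2 units. UQCRC2 shows tight groups 0.42 apart, whereas in UQCRH the groups overlap and NCT-503 a (6.57) stands above the other arrays.

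Sequence around the annotated start sites is shown for the 5 genes in which the promoter matches described next lie, or whose adjusted p was the smallest (UQCRC2). RefSeq promoter windows (GRCh38.p14, 250 bases before the start site and 50 after it) were matched by symbol to 7 of the 10 genes: UQCRC1, UQCRC2, UQCRH, COX4I1, COX5A, COX5B and COX7C. The stretches below run 5′ to 3′ on the gene's strand from 100 bases before the start site to 20 after it, each 120 bases long. They lie at chr3:48609627-48609746 (minus strand) for UQCRC1, chr16:21953261-21953380 (plus strand) for UQCRC2, chr1:46303598-46303717 (plus strand) for UQCRH, chr16:85799595-85799714 (plus strand) for COX4I1 and chr2:97645962-97646081 (plus strand) for COX5B. Capitals mark matches to the NRF1 motif in UQCRC1 and to the GABP motif in UQCRH, COX4I1 and COX5B.
UQCRC1: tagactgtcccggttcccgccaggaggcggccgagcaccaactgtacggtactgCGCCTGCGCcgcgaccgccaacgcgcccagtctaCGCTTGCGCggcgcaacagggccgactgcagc
UQCRC2: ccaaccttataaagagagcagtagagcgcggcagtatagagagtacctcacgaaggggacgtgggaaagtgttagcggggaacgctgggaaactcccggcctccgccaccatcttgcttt
UQCRH: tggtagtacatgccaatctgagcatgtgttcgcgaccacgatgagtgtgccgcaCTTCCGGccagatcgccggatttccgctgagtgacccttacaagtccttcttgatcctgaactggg
COX4I1: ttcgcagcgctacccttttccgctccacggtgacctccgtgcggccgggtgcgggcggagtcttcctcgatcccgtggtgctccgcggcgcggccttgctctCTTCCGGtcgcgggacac
COX5B: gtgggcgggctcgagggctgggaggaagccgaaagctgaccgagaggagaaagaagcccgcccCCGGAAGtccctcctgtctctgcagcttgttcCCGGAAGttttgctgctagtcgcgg

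NRF1 (nuclear respiratory factor 1), GABP and YY1 are transcription factors known to bind promoters of many nuclear respiratory chain genes, and ATF4 drives the amino acid response. Letters were searched on both strands of the 300-base windows, and a match is a description of the letters, not of binding. The NRF1 motif GCGCANGCG matched 1 of the 7 windows, that of UQCRC1, at 46 and 12 bases before the start site, and 8.05% of all 27305 windows. The GABP motif CCGGAAG matched 3 of 7: UQCRH at 46 bases before the start, COX5B at 37 and 5 before it, and COX4I1 at base 3 of the transcript. It matched 10.7% of all windows. The YY1 motif AANATGGCG matched UQCRC1 alone, at base 24 of the transcript (beyond the stretch shown), and 3.37% of all windows, and the ATF4 composite motif TGATGNAA matched 0 of 7 and 3.67% of all. No matches overlapped one another. Of the 4 genes with a match, UQCRC1, COX4I1 and COX5B were called higher and UQCRH was not. Of the 3 without a match to any of the 4 motifs, UQCRC2 and COX5A were called higher and COX7C was not.

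**Figure D2:**
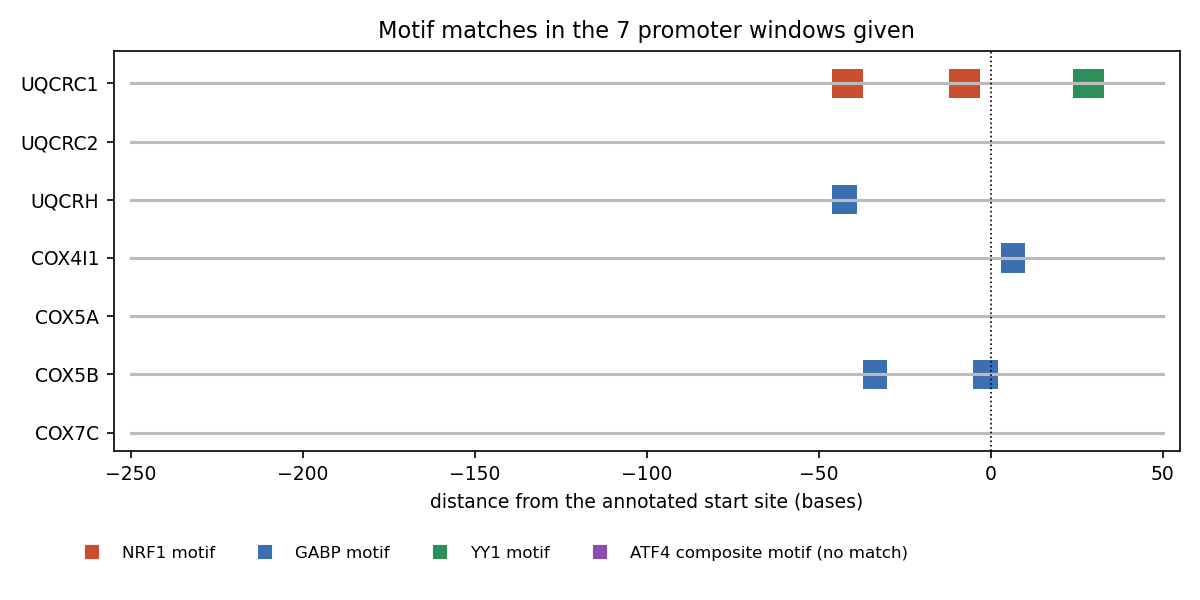
Motif matches in the 7 promoter windows, by distance from the annotated start site in bases (dotted line at 0); each grey line is 1 window of 300 bases and each coloured block a match. The 7 blocks lie in 4 genes, UQCRC1, UQCRH, COX4I1 and COX5B, all within 50 bases of the start site.

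UQCRC1 and UQCRC2 are the core proteins of complex III, which face the matrix. UQCRC2 read 11.09, 11.08 and 11.04 in DMSO a, b and c and 11.51, 11.52 and 11.54 in NCT-503 a, b and c. The groups stood apart, and the arrays within each differed little. From 11.07 ± 0.03 to 11.52 ± 0.01 (SD, n = 3 each), it changed by 0.45 ± 0.07 (SE, adjusted p = 0.00229), and this was the only one of the 10 with an adjusted p under 0.01. UQCRC1 read 7.44, 7.52 and 7.40 in the DMSO arrays and 8.02, 7.80 and 7.74 in the NCT-503 arrays. All treated values were above all controls, with NCT-503 a the highest. Its change of 0.40 ± 0.10 (adjusted p = 0.0172) lost its call without DMSO a (adjusted p = 0.0547) or DMSO c (0.0591).

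CYC1 encodes cytochrome c1, the haem protein that hands electrons to cytochrome c. It read 7.50, 7.66 and 7.51 in DMSO and 8.17, 7.88 and 7.82 with NCT-503, again with NCT-503 a the highest and no overlap. The change was 0.40 ± 0.11 (adjusted p = 0.0285), and the adjusted p became 0.0878 when DMSO a was left out, 0.0828 for DMSO c and 0.0582 for NCT-503 a. Without variance moderation it was 0.083.

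UQCRB, a small subunit beside the ubiquinone-binding site, had the largest change of the 10. Its DMSO arrays read 6.24, 6.56 and 6.62 and its NCT-503 arrays 6.95, 6.98 and 7.15. DMSO a was the low value, and the groups were 0.33 apart. From 6.47 ± 0.21 to 7.03 ± 0.11 (SD, n = 3 each), the change was 0.56 ± 0.12 (SE, adjusted p = 0.0111), and 885 of the 14779 genes had a larger fitted rise. With an unmoderated linear model the adjusted p was 0.0535. UQCRBP1, a pseudogene named for UQCRB that has a row of its own, changed by 0.37 ± 0.12 (adjusted p = 0.0552), and the probes may not separate the pair.

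UQCRH, the hinge protein between cytochrome c1 and cytochrome c, read 6.25, 6.06 and 6.26 in DMSO and 6.57, 6.16 and 6.19 with NCT-503. Only NCT-503 a lay above the controls. The change was 0.12 ± 0.13 (adjusted p = 0.512), and without NCT-503 a it was -0.01. UQCRHL is a copy of UQCRH that encodes a nearly identical protein. It read 8.20, 8.26 and 8.39 in DMSO and 8.75, 8.69 and 8.62 with NCT-503, without overlap, and rose by 0.40 ± 0.08 (adjusted p = 0.00941). The probes may not separate the pair, and the difference between their changes was not tested. LRRC41, named after its value was seen, starts 82 bases from UQCRH on the opposite strand and rose by 0.64 ± 0.14 (adjusted p = 0.0105).

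COX4I1 and COX5A join first with the catalytic core when complex IV is built. COX4I1, the widely expressed form of subunit 4, read 9.63, 9.78 and 9.68 in DMSO and 10.10, 10.11 and 9.94 with NCT-503. The groups were 0.16 apart. Its change was 0.36 ± 0.09 (adjusted p = 0.0169), and leaving out 1 of 4 arrays (DMSO a or c, NCT-503 a or b) put the adjusted p at 0.0523 to 0.0612. EMC8, named after its value was seen, starts 151 bases away on the opposite strand and changed by -0.10 ± 0.12 (adjusted p = 0.552). The hypoxia-associated isoform COX4I2 read 5.56, 5.98 and 5.30 in DMSO and 5.88, 6.12 and 5.84 with NCT-503, overlapping, with a change of 0.33 ± 0.17 (adjusted p = 0.186). That change was 0.18 without DMSO c and 0.52 without DMSO b, where it was called (adjusted p = 0.0309).

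COX5A read 10.64, 10.62 and 10.56 in DMSO and 10.86, 10.93 and 10.86 with NCT-503. Each group spanned less than the gap of 0.22 between them. It rose by 0.28 ± 0.07 (adjusted p = 0.0216), the smallest change that was called among the 10. On quantile-normalised arrays the change was 0.11 (adjusted p = 0.287), and leaving out any DMSO array or NCT-503 b put the adjusted p at 0.0528 to 0.0768.

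COX5B, a zinc-binding subunit on the matrix side, rose most among the complex IV genes. Its values were 5.88, 5.96 and 5.81 in DMSO and 6.56, 6.23 and 6.27 with NCT-503. All treated arrays were above the controls, NCT-503 a by the widest margin. The means were 5.88 ± 0.07 and 6.35 ± 0.18 (SD, n = 3 each), and the change was 0.47 ± 0.11 (SE, adjusted p = 0.0136). Without moderation its adjusted p was 0.0514.

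COX6C and COX7C are small membrane-spanning subunits that surround the catalytic core. COX6C read 5.55, 5.57 and 5.58 in DMSO and 5.83, 5.74 and 5.77 with NCT-503, groups that do not overlap. Its change of 0.21 ± 0.07 (adjusted p = 0.0536) fell just outside the threshold, and the adjusted p was 0.0265 after median centring of the arrays and 0.0193 after centring by the 75th percentile. It was 0.105 with the replicate letter as a block and 0.0865 to 0.134 with 1 array left out. COX7C read 8.17, 8.37 and 8.16 in DMSO and 8.45, 8.38 and 8.39 with NCT-503. DMSO b lay 0.009 below the lowest treated array, and the change was 0.17 ± 0.09 (adjusted p = 0.171). RefSeq lists 18 pseudogenes named for COX6C, 8 for COX5B, 4 each for COX7C and UQCRH, and none for UQCRC1 or CYC1, and probes may read such copies too.

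**Figure D3:**
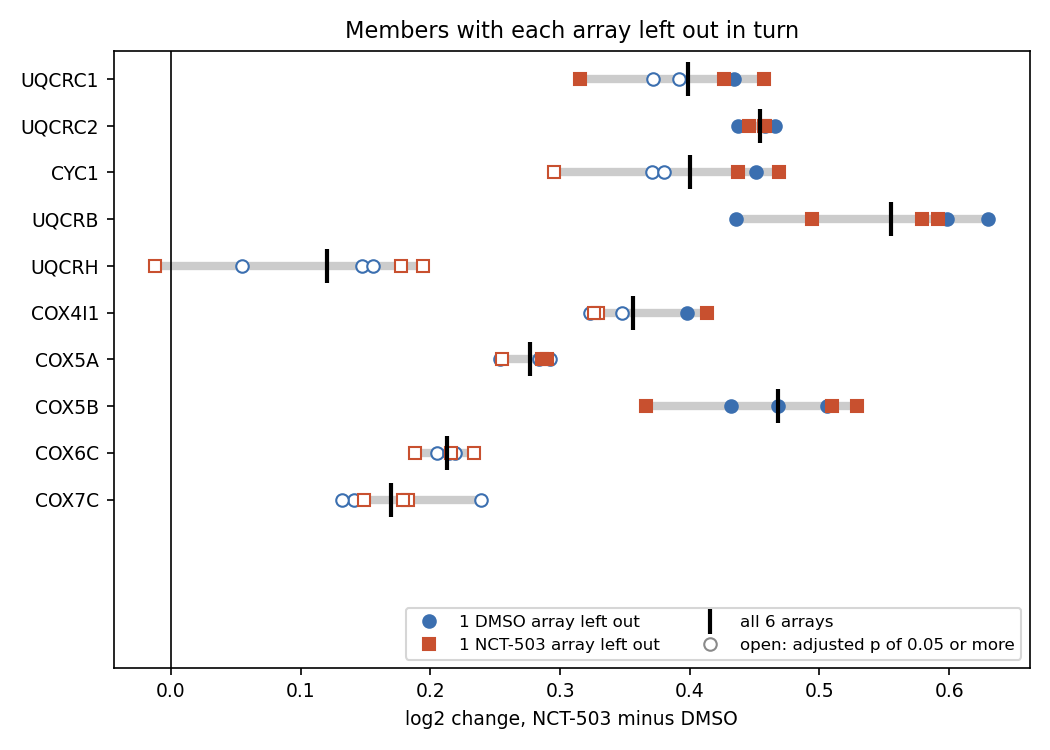
Log2 change of each gene with all 6 arrays (black bar) and with 1 array left out (blue circles for a DMSO array, orange squares for an NCT-503 array), filled where the adjusted p was under 0.05; the grey band spans the lowest and highest. UQCRB, UQCRC2 and COX5B stay filled throughout, and UQCRH alone crosses 0.

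The other measured subunits of complex IV gave 4 calls higher among 12, against 16.4% of all genes. COX6A1 rose by 0.34 ± 0.10, COX6B1 by 0.30 ± 0.07 and COX7A2 by 0.28 ± 0.08 (adjusted p = 0.0435, 0.0163 and 0.0286); all are widely expressed forms. COX6B2, a testis isoform, rose by 0.35 ± 0.08 (adjusted p = 0.0137). That call was lost without DMSO a (adjusted p = 0.0503) and with trend and robust eBayes (0.0588). With 1 array left out in turn, COX6A1 and COX7A2 each lost their calls in 5 of 6 fits and COX6B1 in 2. COX6A1 also lost its call without moderation (adjusted p = 0.1), on quantile-normalised arrays (0.138) and with every row tested (0.0626). COX7A2 also lost its call with the replicate block (0.0705). The DMSO mean of COX6B2 lay within the range of the endothelial markers (2.48 to 3.68), as did those of COX7A1 and COX7B2. Whether these dim rows read the named transcripts was not tested. COX7A2L, a factor that joins complexes III and IV into supercomplexes, changed by 0.27 ± 0.09 (adjusted p = 0.0556), COX8A by 0.30 ± 0.11 (0.0637) and COX7A1, the heart and muscle form, by 0.30 ± 0.11 (0.0722). All 3 were called under either centring of the arrays, COX7A2L and COX8A also without NCT-503 c. COX7A1 changed by 0.40 without NCT-503 b (adjusted p = 0.0308) and by 0.20 without NCT-503 c. COX7B changed by 0.12 (0.271), COX7B2 by 0.14 (0.228), COX6A2 by -0.06 (0.857) and COX8C by -0.38 (0.173). The median over the 12 was 0.29. With 1 array left out the count ran from 0 (without DMSO a) to 6 (without NCT-503 c), with 1 without DMSO c and 2 without NCT-503 a, while 11.8% to 14.2% of all genes were called higher. It was 7 with either centring, where 20.2% (median) and 22.6% (75th percentile) of all genes were. COX6A1 has a second, dimmer row with a change of 0.79 ± 0.26 (adjusted p = 0.0635 over all rows).

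**Figure D4:**
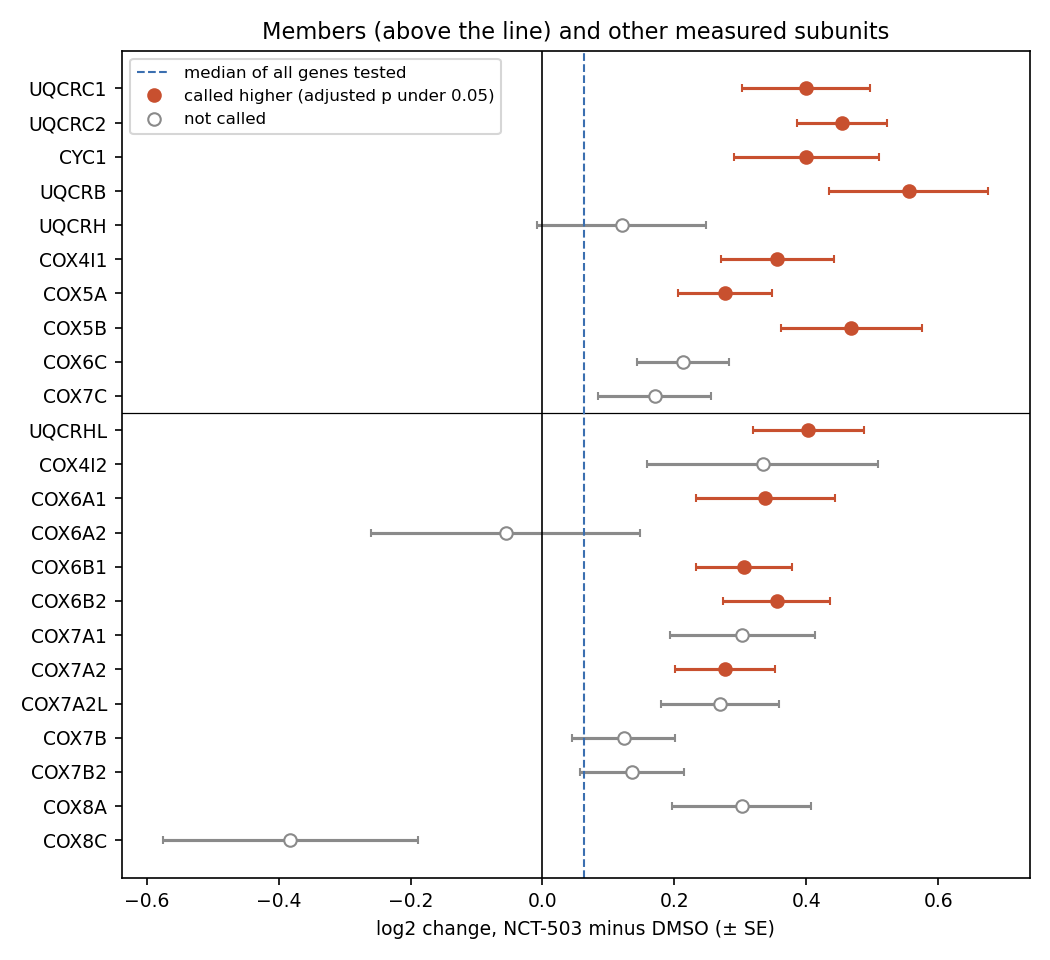
Log2 change (NCT-503 minus DMSO) ± SE for the 10 genes above the horizontal line and the 13 other measured subunits below it, filled orange where called higher; the dashed line is the median of all genes tested (0.06). Of these 23 subunits, 21 lie to the right of 0, COX6A2 (-0.06, but 0.01 after 75th-percentile centring) and COX8C (-0.38) to the left.

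Among factors that build the complexes, changes went both ways, and the largest were falls. UQCC1, which supports the making of cytochrome b, read 8.22, 8.31 and 8.34 in DMSO and 7.24, 7.31 and 7.20 with NCT-503, and fell by 1.04 ± 0.08 (adjusted p = 0.000123). LYRM7, the chaperone of the complex III iron-sulfur protein, fell by 0.79 ± 0.12 (adjusted p = 0.00276). UQCC6, a small membrane protein needed for complex III assembly, rose by 0.31 ± 0.08 (adjusted p = 0.0276), a call lost without DMSO a or b or NCT-503 a or b. Of 7 complex III assembly factors measured these 3 were called, 1 higher and 2 lower, against 16.4% and 17.1% of all genes. The median change over the 7 was 0.003.

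Of 24 complex IV assembly factors measured, 6 fell and 4 rose, against 17.1% and 16.4% of all genes, with a median of -0.01. COA5 read 5.77, 5.98 and 5.97 in DMSO and 4.80, 4.38 and 4.57 with NCT-503, and fell by 1.33 ± 0.12 (adjusted p = 0.000308). COA1, which acts early on the newly made COX1 chain, read 7.85, 7.92 and 7.86 in DMSO and 6.74, 6.59 and 6.50 with NCT-503, and fell by 1.27 ± 0.09 (adjusted p = 9.83e-05). Treated and control arrays were at least 0.97 apart for both. TMEM177, which takes part in making COX2, fell by 0.97 ± 0.14 and COA7 by 0.96 ± 0.14 (adjusted p = 0.00196 and 0.00188). SCO1 (-0.63 ± 0.08, adjusted p = 0.00112) and COX14 (-0.54 ± 0.13, adjusted p = 0.0177) were also called lower. The rises were smaller: COA6 (0.31 ± 0.08), COX17 (0.29 ± 0.08), CMC1 (0.29 ± 0.09), and OXA1L (0.27 ± 0.07), an insertase of the inner membrane. The falls of UQCC1, LYRM7, COA5, COA1, TMEM177 and COA7 kept their calls with each array left out in turn. Each of the 5 rises named for assembly factors lost its call without at least 1 array. SCO1 and COX14 were not followed singly in those fits, so the contrast covers only the larger falls. Without DMSO a or NCT-503 b, 0 of 24 complex IV factors were called higher by limma, and without any of the other arrays 1 was, with 11.8% to 14.2% of all genes called higher in these fits.

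HCCS, the lyase that attaches haem to cytochrome c and to the cytochrome c1 that CYC1 encodes, read 8.26, 8.29 and 8.28 in DMSO and 7.50, 7.43 and 7.55 with NCT-503. It fell by 0.78 ± 0.07 (adjusted p = 0.000296), while CYC1 itself rose. Cytochrome c (CYCS) was not analysed here. Complexes I and II and the mitochondrially encoded subunits were not analysed here either. Of the ATP synthase list 3 of 18 genes had a row, ATP5MK (0.13), ATP5MJ (0.05) and ATP5IF1 (-0.05), with adjusted p of 0.278, 0.761 and 0.737.

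**Figure D5:**
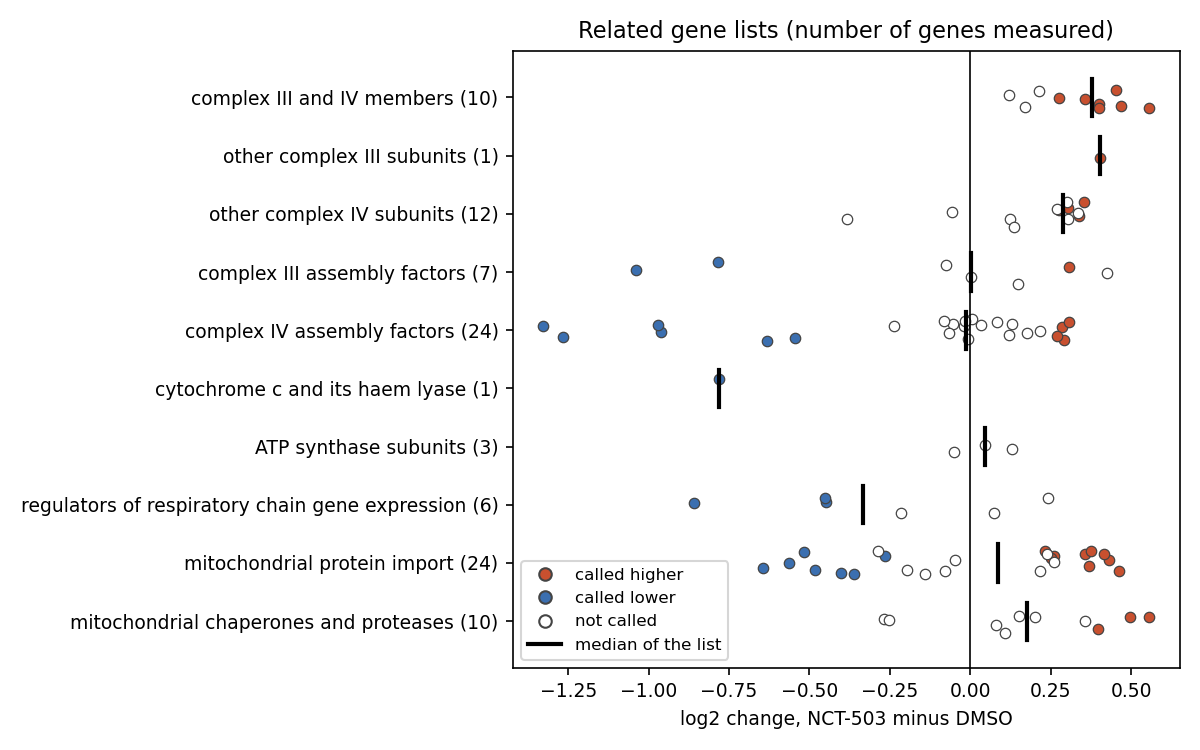
Log2 change of each measured gene by list, with the number measured in brackets, orange for called higher, blue for called lower and white for not called; black bars are list medians and vertical scatter has no meaning. The 10 subunits lie between 0.12 and 0.56, and the assembly factors spread from -1.33 to 0.43.

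Of 15 listed regulators of respiratory chain genes and mitochondrial DNA, 6 had a row and 3 fell, against 17.1% of all genes. TWNK, the helicase of mitochondrial DNA, fell by 0.86 ± 0.11 (adjusted p = 0.0013). NRF1, whose motif is shown for UQCRC1, read 6.47, 6.54 and 6.59 in DMSO and 6.03, 6.21 and 6.02 with NCT-503 and fell by 0.45 ± 0.09 (adjusted p = 0.00617). MTERF1, a mitochondrial transcription termination factor, fell by 0.45 ± 0.12 (adjusted p = 0.0247), a call lost without DMSO b, NCT-503 a or NCT-503 b. YY1 changed by -0.21 ± 0.10 (adjusted p = 0.147), and GABPA was not analysed here.

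Nuclear-encoded subunits reach the complexes through the protein import machinery, in which 9 of 24 measured genes rose and 7 fell, against 16.4% and 17.1% of all genes. The 4 with the largest changes all fell, while the median over the 24 was 0.085. The largest rise was that of TOMM20 (0.46 ± 0.08, adjusted p = 0.00341). TIMM22, the channel for carrier proteins, changed by -0.64 ± 0.07, and TIMM23, the channel for presequence proteins, by -0.56 ± 0.07. TOMM5, of the outer membrane translocase, changed by -0.52 ± 0.07 and PMPCA, part of the peptidase that removes presequences, by -0.48 ± 0.09 (adjusted p from 0.000625 to 0.00688 for the 4). With 1 array left out 4 (without DMSO a) or 5 import genes were called higher, with 11.8% to 14.2% of all genes called higher. The count of import genes called lower was 4 without DMSO b, where 2149 of all 14779 genes were called lower. Of 10 measured mitochondrial chaperones and proteases 3 rose (16.4% of all genes did), the protease HTRA2 (0.56 ± 0.08, adjusted p = 0.00197), the unfoldase CLPX (0.50 ± 0.08, 0.00246) and the prohibitin PHB2 (0.40 ± 0.10, 0.0206). The call for PHB2 was lost when DMSO b or c, or NCT-503 b or c, was left out. Under either centring 5 of these 10 genes were called higher, with 20.2% and 22.6% of all genes called higher in the same fits.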

How the data were processed

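The table of 31135 rows and 6 arrays was used as the authors deposited it, as log2 values (0.578 to 13.6, no missing cell). Partek is the only tool named in the submitters' processing notes, and neither a version nor the way background and scale were handled is given in the sources used here. No scanner values were used, so no probe was set against its background, and changes of dim genes may be understated. The platform annotation named 15098 rows with 1 gene and none with several, all matched by Entrez identifier to RefSeq (GRCh38.p14). For genes with several rows (256) the brightest was used, leaving 14779 genes.

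The groups were compared in R 4.3.3 by limma 3.58.1, with lmFit and eBayes (no trend, no covariate). Tests were two-sided, and p-values were adjusted by Benjamini and Hochberg's method over the 14779 genes. The number of arrays limits the precision, with a median SE of 0.105. The step was tested on simulated data. Members, lists and motifs were chosen with earlier results of these data known. Named were all members and other complex III and IV subunits, HCCS, the ATP synthase genes with a row, up to 4 called genes per other list by size, and every called gene where 5 or fewer went one way. SCO1, COX14 and TOMM20 were named outside this rule, after their values were seen. Alternatives are in the closing section. Replicate letters were not used to pair the samples in the main fit.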

Additional observations from a re-analysis of the deposited data

How the results depend on the processing

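Over 6 fits that left out 1 array and 12 other alternatives, the change of the 10 subunits was below 0 for UQCRH in 1 fit, without NCT-503 a, and above 0 in the rest. For genes with 1 row, such as the 10, only array weights, both centrings and quantile normalization among the 12 can move a change. Averaging all rows of a gene also moves it where there are several, as for COX6A1 (0.56 against 0.34 in the main fit). The others alter the test and not the difference. The number called higher was 1 (UQCRC2) at an adjusted p under 0.01, a threshold for which no share of all genes is given. It ran from 3 to 7 with 1 array left out (11.8% to 14.2% of all genes). It was 5 without moderation (12.4%), where UQCRB (adjusted p = 0.0535), CYC1 (0.083) and COX5B (0.0514) lost their calls and COX6C (0.0126) gained one. With the replicate block it was 5 (14.3%), and CYC1 and COX5A lost their calls (adjusted p = 0.0536 each). On quantile-normalised arrays it was 7 (16.8%), with COX6C (adjusted p = 0.0126) called and COX5A (0.287) not. Same-letter deviations correlated at 0.004, 0.003 and 0.037, and those of other letters at -0.033 to 0.028. These values cannot show whether samples were handled in pairs. The median change ran from 0.31 to 0.45. Both centrings and both filters on dim genes called 8 of 10, COX6C being the one added, with 20.2% and 22.6% of all genes called higher after centring and 22.3% and 29.1% of those tested after filtering. Directions turned for UQCRH without NCT-503 a (-0.012, range -0.012 to 0.194), COX6A2 on the 75th percentile (0.013) and without DMSO c (0.136) or NCT-503 c (0.066), the range with 1 array left out being -0.252 to 0.136, ATP5IF1 on the 75th percentile (0.017), on quantile-normalised arrays (0.037) and without NCT-503 c (0.033, range -0.144 to 0.033), and ATP5MJ without NCT-503 a (-0.008, range -0.008 to 0.127). None of these was called in any of the fits. The causes were not tested.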
